A study of Rattus norvegicus with 65 samples.

Results

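Hypothalami of rats whose body weight was held down by food restriction (BWM) were set against those of sham-operated rats (Sham). The members were chosen by their labels: every BWM and every Sham library of batch A, 12 of the 65 libraries of the series and of the 37 in that batch. The BWM group held 7 animals and the Sham group 5, with 1 library per animal. The study asked how bypass surgery, gut hormone treatment and food restriction alter transcripts of the hypothalamus in obese rats. All 12 animals were adult male rats of the Wistar strain that had been made obese on a high-fat diet. Animals of the BWM group were also operated on without a bypass and then received rationed high- and low-fat food, with the aim of matching the weight of bypassed rats. Sham animals underwent the same mock operation and ate both diets freely. Brains were taken some weeks after the intervention, following a fast, and the whole hypothalamus was dissected from frozen tissue. The amount eaten, the loss of weight and the time under restriction went together in BWM and cannot be told apart. Further groups of the same batch appear where the text names them: Bypass with 11 animals, Lean with 6 animals kept on low-fat food, and Saline with 3 animals. A group of 5 animals given PYY and liraglutide enters the fit of all 37 libraries and is not described otherwise.

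The hypothalamus senses energy stores. Neurons of its arcuate nucleus release agouti-related peptide and neuropeptide Y to drive feeding, or melanocortins made from proopiomelanocortin to restrain it, and leptin from fat tissue acts on both through its receptor. The same block of tissue is bounded by the meninges, whose fibroblasts make collagens and insulin-like growth factor, and it is crossed by vessels lined by endothelium and wrapped by smooth muscle, pericytes and resident macrophages.

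The files held estimated counts for 38513 genes. Each library held between 26168268 counts, in BWM 6, and 34128339 counts, in Sham 2, where the number after a group is the replicate. Levels are CPM, a gene's counts relative to the size of its library, scaled by the trimmed mean of M values, on a single scale for the 37 libraries of batch A. Fold changes are log2 of BWM over Sham, written with their standard error (SE, n = 7 and 5) after ± and often in parentheses alone, and p-values come from edgeR unless DESeq2 is named. A gene is called regulated when its p-value adjusted over all genes tested is under 0.05 and its log2 fold change exceeds 1 in size.

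Marker genes showed that some libraries stood apart before any comparison was made. BWM 5 held anterior pituitary transcripts at a far higher level than the rest: the summed level of the 14 pituitary markers was 5.94, 11.4, 23.4, 30.9, 78867, 453 and 1257 CPM in BWM 1 to 7, and 11.9, 5.99, 87.8, 497 and 13.7 CPM in Sham 1 to 5. Its most abundant gene was Gh1, growth hormone, at 64201 CPM in BWM 5. BWM 7, Sham 4 and BWM 6 held the next highest sums. BWM 1 stood apart through markers of striatum, which summed to 6083 CPM there and to no more than 1469 CPM in the other 11 libraries, with Ppp1r1b as the most abundant gene. Sham 2 stood apart through markers of cortex and hippocampus, at 5225 CPM against 1514 CPM or less elsewhere, and Sham 1 through markers of thalamus and habenula, at 1491 CPM against 535 CPM or less. The most abundant genes of those lists were Nrgn and Calb2. No gene of these lists was at 0 in all 12 libraries.

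Some peptides of the hypothalamus were low in the same BWM 1, Sham 1 and Sham 2. Hcrt, the precursor of orexin from the lateral hypothalamus, was at 0.0649, 2.85 and 5.59 CPM in those animals and ranged between 36.0 and 562 CPM in the other 9. Pmch, the precursor of melanin-concentrating hormone, was at 3.28, 76.3 and 3.95 CPM and otherwise between 281 and 2228 CPM. Oxt, the precursor of oxytocin, was low in BWM 1 and Sham 2 but not in Sham 1, at 0.584 CPM in BWM 1, 5.49 CPM in Sham 2 and 286 CPM in Sham 1. These 3 genes were chosen after their values were seen, and others did not share the pattern: in BWM 1, Npy was at 37.6 CPM and Pdyn at 191 CPM, the second highest and the highest of BWM and Sham. Gal, galanin, was low in all 3 animals, at 0.0974, 3.14 and 1.41 CPM. Markers of hypothalamic nuclei summed to 109, 167, 197, 177, 313, 169 and 227 CPM in BWM 1 to 7 and 260, 57.3, 173, 212 and 136 CPM in Sham 1 to 5. Their most abundant gene was Rgs16, a regulator of G protein signaling, and without it, a step chosen after seeing the data, the sums were 95.8, 121, 115, 146, 281, 127 and 124 CPM and 93.3, 41.8, 157, 193 and 119 CPM. Marker content thus differed among animals labelled as hypothalamus, in both groups. Results are given for all 12 animals and for smaller sets of libraries where these are named.

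**Figure D1:**
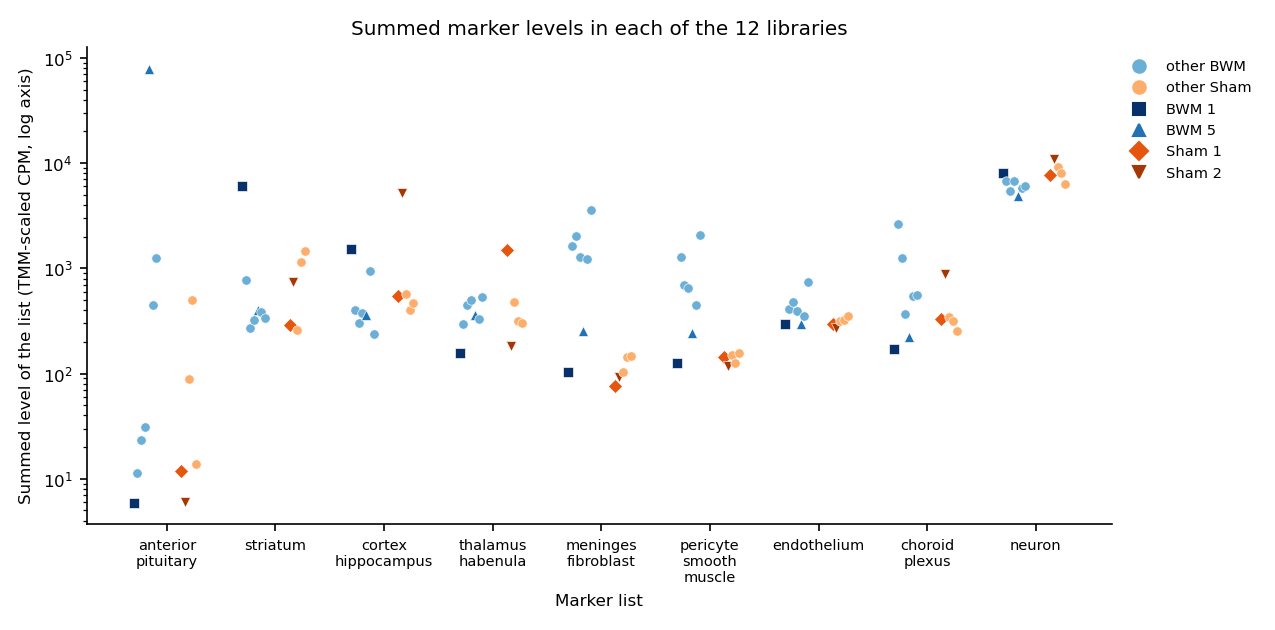
Summed level of each marker list (TMM-scaled CPM, log axis) in the 12 libraries, with BWM on the left and Sham on the right of each list. BWM 5 sits at 78867 CPM for anterior pituitary, BWM 1 at 6083 CPM for striatum and Sham 2 at 5225 CPM for cortex and hippocampus.

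Genes of the brain's coverings and vessels stood higher in most BWM animals than in Sham, and so did some genes of antigen presentation. No gene passed an adjusted p under 0.05 with all 12 animals in edgeR, and which genes passed in other settings depended on single libraries. With all 12 animals, edgeR called 0 of 19691 genes regulated (0%), and the smallest adjusted p was 0.169. At an unadjusted p under 0.05, 1520 genes were higher (7.72%) and 764 lower in BWM (3.88%). These shares were 6.13% and 2.54% without Sham 2, 10.1% and 8.56% without BWM 1, and 11% and 6.49% in the fit of 37 libraries described below. Counts of list members at an unadjusted p under 0.05 are to be read beside these shares. DESeq2 on the same 12 animals called 525 genes regulated without shrinkage (1.72%; 506 higher and 19 lower) and 436 with a prior on the fold changes (1.43%). All 7 BWM animals lay above all 5 Sham animals for 80 genes (0.406%) and below them for 39 (0.198%).

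Leaving out BWM 5 did not bring any gene past the threshold: edgeR called 0 genes regulated, with 1381 higher (7.05%) and 565 lower (2.89%) at an unadjusted p under 0.05. DESeq2 without BWM 5 called 515 (1.71%). Leaving out BWM 1 gave 446 regulated genes, 430 higher and 16 lower, and DESeq2 then called 1040 (3.45%). In that setting 465 genes were higher (2.38%) and 58 lower (0.297%) at an adjusted p under 0.05. None of the other 10 libraries gave a gene at an adjusted p under 0.05 in edgeR when it was left out alone, and the counts at an unadjusted p under 0.05 then ran from 1594 to 2653. With BWM 1, Sham 1 and Sham 2 all left out, a setting chosen after seeing the data, edgeR called 0 genes regulated, with 0 at an adjusted p under 0.05, and 1832 were higher (9.07%) and 1277 lower (6.32%) at an unadjusted p under 0.05. A fit of all 37 libraries of batch A, which takes the spread between animals from every group, gave 273 regulated genes, 246 higher and 27 lower; at an adjusted p under 0.05 it called 1.30% of 21775 genes higher and 0.289% lower. The count of regulated genes also moved with single libraries. It was 963 without BWM 1, 348 without BWM 2, 0 without BWM 3, 249 without BWM 4, 263 without BWM 5, 314 without BWM 6, 0 without BWM 7, 64 without Sham 1, 0 without Sham 2, 19 without Sham 3, 61 without Sham 4 and 74 without Sham 5. The 37-library fit and the fit without BWM 1 shared 184 regulated genes, 67.4% of the former and 41.3% of the latter; they share animals.

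**Figure D2:**
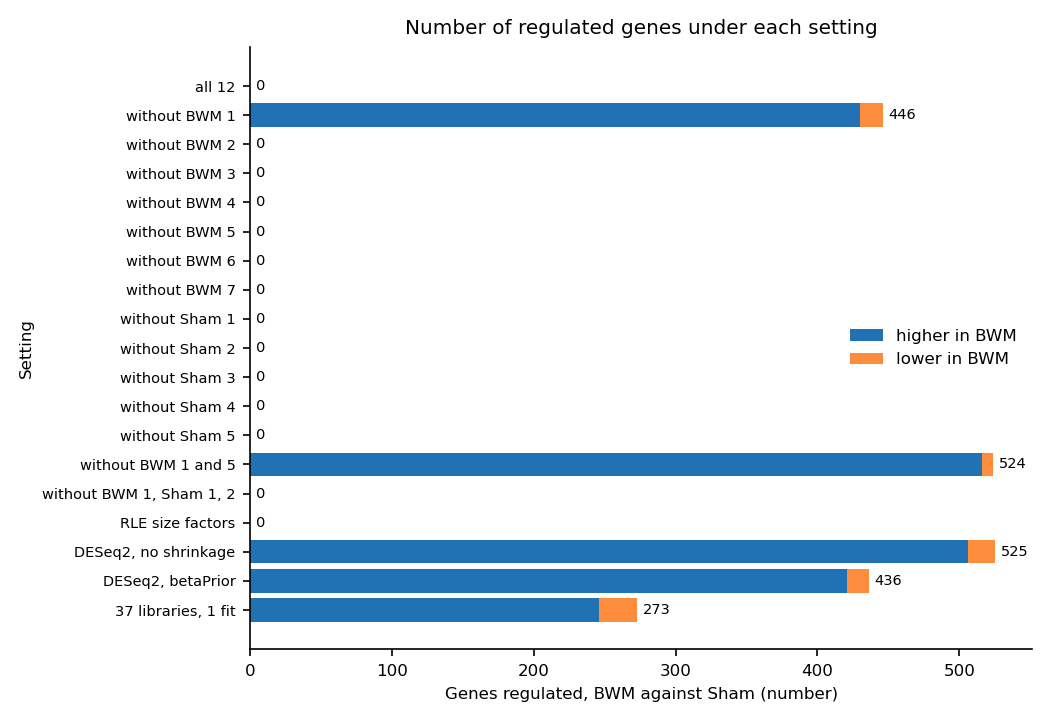
Number of genes regulated in BWM against Sham (adjusted p under 0.05 and log2 fold change above 1 in size) for each setting, with genes higher in BWM in blue and lower in orange. The bars stand at 0 with all 12 animals in edgeR, at 446 without BWM 1 and at 525 in DESeq2 without shrinkage.

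With all 12 animals, genes of meningeal fibroblasts were higher in BWM by the widest margin of the lists. Without Sham 4 their median log2 fold change was 3.99, below the 4.89 of anterior pituitary markers. All 14 of the meningeal members tested with 12 animals were higher, each at an unadjusted p under 0.05. Their median log2 fold change was 3.74 beside 0.01 over all genes tested, and 3.07 without BWM 7. Of 14 listed symbols all were in the table, Ogn stood under 2 gene IDs with equal counts, and Alx4 was too low to test. The summed level was 103, 1633, 2021, 1292, 254, 1214 and 3611 CPM in BWM 1 to 7 and 76.1, 93.5, 103, 145 and 147 CPM in Sham 1 to 5, with Igf2 as the most abundant gene. BWM 2, 3, 4, 6 and 7 lay far above every Sham animal and BWM 5 nearer to them, whereas BWM 1 lay within the Sham range. None of the members passed with all 12 animals; 11 passed an adjusted p under 0.05 without BWM 1, 0 without BWM 5, 0 of 14 without Sham 2, 0 of 15 without BWM 1, Sham 1 and Sham 2, 14 of 14 without BWM 1 and BWM 5, a set also chosen after seeing the data, and 9 of 15 in the 37-library fit. In bulk tissue, fewer cells of a type and less RNA per cell cannot be told apart.

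Col1a1 encodes a chain of type I collagen, the main fibre of connective tissue (gene ID gene24783, chr10:82745801-82762790 on Rnor_6.0). It was at 10.5, 118, 186, 113, 26.5, 76.0 and 427 CPM in BWM 1 to 7 and at 6.86, 4.05, 7.0, 8.73 and 9.71 CPM in Sham 1 to 5. The groups did not overlap, although BWM 1 lay just above the highest Sham animal. The log2 fold change was 4.23 ± 0.79, with an adjusted p of 0.169, of 0.129 without BWM 5, 0.0114 without BWM 1 and 0.0325 in the 37-library fit. Without BWM 7 it was 3.61 (0.184). Igf2, insulin-like growth factor II (gene3817, chr1:215828102-215839081), was at 47.1, 1044, 1089, 718, 90.5, 758 and 1532 CPM in BWM and 33.9, 40.7, 46.6, 48.7 and 53.0 CPM in Sham. Its levels in BWM 1 fell among those of Sham and all other BWM animals were above. Its log2 fold change was 4.08 ± 0.76, with an adjusted p of 0.169 for all 12, 0.129 without BWM 5 and 0.0114 without BWM 1. Aldh1a2, which makes retinoic acid in the meninges, spanned 4.12 to 215 CPM (median 48.4) in BWM and was at 2.79, 2.38, 3.29, 3.84 and 6.56 CPM in Sham (log2 fold change 4.29 ± 0.83). Foxc2, a transcription factor of meningeal and vascular development, spanned 0.260 to 24.8 CPM (median 6.14) in BWM and was at 0.321, 0.301, 0.214, 0.709 and 0.667 CPM in Sham (4.17 ± 0.91; 3.56 without BWM 7). For both, BWM 7 was highest and BWM 1 lay among the Sham animals.

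Collagens and other matrix genes shifted with them. The 27 listed genes gave 28 gene IDs tested, since Ogn counts under 2. Of these 28, 26 were higher and 19 were higher at an unadjusted p under 0.05, with a median log2 fold change of 1.37. Without BWM 1, 14 passed an adjusted p under 0.05, as did 10 in the 37-library fit and 0 without BWM 5, 0 without Sham 2 and 0 without BWM 1, Sham 1 and Sham 2; without BWM 1 and BWM 5 it was 14. The list shares Col1a1, Ogn and others with the meningeal markers. Col1a2, the partner chain of Col1a1, spanned 5.52 to 365 CPM (median 80.4) in BWM and was at 3.98, 2.61, 6.11, 8.84 and 7.60 CPM in Sham (4.25 ± 0.84). Col3a1, a collagen of vessels and soft tissue, spanned 8.57 to 669 CPM (median 116) and was at 7.18, 2.74, 6.29, 9.48 and 10.8 CPM (4.68 ± 0.94). Bgn, biglycan, a matrix proteoglycan, spanned 9.64 to 412 CPM (median 96.8) and was at 11.4, 16.6, 14.2, 13.5 and 17.1 CPM (3.17 ± 0.70). BWM 7 was highest for all of these, and without it the fold changes were 3.57, 3.90 and 2.55. BWM 1 was the only BWM animal within or below the Sham range. Outside the lists, Pcolce, an enhancer of collagen processing, and Wnt6, a secreted signal, were chosen after their values were seen. Pcolce spanned 3.02 to 96.9 CPM (median 32.5) in BWM and 2.18 to 4.89 CPM (median 2.84) in Sham, and Wnt6 0.455 to 59.3 CPM (median 11.3) and 0.0669 to 0.408 CPM (median 0.261). Their log2 fold changes were 3.70 ± 0.66 and 6.02 ± 1.11, with an adjusted p of 0.0114 without BWM 1 for both, and that of Wnt6 was 5.25 without BWM 7.

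Genes of the vessel wall were high in much the same animals. The pericyte and smooth muscle markers summed to 127, 1282, 694, 656, 245, 445 and 2060 CPM in BWM 1 to 7 and 143, 118, 150, 127 and 158 CPM in Sham 1 to 5, with Tagln as the most abundant gene. All 9 were higher, 7 at an unadjusted p under 0.05, with a median log2 fold change of 1.85. At an adjusted p under 0.05, 5 passed without BWM 1, 0 without BWM 5, 0 without BWM 1, Sham 1 and Sham 2, 6 without BWM 1 and BWM 5, and 4 in the 37-library fit. Acta2, the actin of smooth muscle, was at 8.12, 267, 121, 138, 26.7, 50.5 and 448 CPM in BWM and 8.21, 7.63, 12, 7.20 and 8.60 CPM in Sham (4.11 ± 0.85). BWM 2 and BWM 7 held the highest levels and BWM 1 the lowest, inside the Sham range. Tagln and Myh11, which bind actin and drive contraction, had log2 fold changes of 3.25 ± 0.71 and 3.25 ± 0.74, and Vtn, vitronectin, which pericytes secrete, of 1.85 ± 0.46. For Tagln and Myh11 the level in BWM 1, 12.6 and 13.2 CPM, was under every Sham animal. Endothelial markers differed less. The 11 of 12 listed that were in the table summed to 293, 411, 479, 396, 295, 356 and 739 CPM in BWM and 295, 269, 313, 325 and 352 CPM in Sham, with Cldn5 the most abundant, and 5 of 10 were higher at an unadjusted p under 0.05 (median 0.53). That count was 3 without BWM 1, Sham 1 and Sham 2, and 3 (without BWM 2, BWM 3, BWM 7, Sham 1, Sham 2 or Sham 4) to 6 (without BWM 1 or BWM 5) with 1 library left out. Kdr and Tek, receptors for vascular growth factors, had log2 fold changes of 1.14 ± 0.34 and 0.91 ± 0.29, Cdh5, which joins endothelial cells, of 1.77 ± 0.53, and Egfl7 of 0.51 ± 0.22. Kdr alone of the list passed without BWM 1 (adjusted p = 0.0362) and in the 37-library fit (0.0427).

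Choroid plexus and blood also gave higher levels in some BWM animals. The 13 choroid plexus markers summed to 172, 2652, 1241, 371, 223, 546 and 563 CPM in BWM and 332, 887, 347, 313 and 253 CPM in Sham, with Ttr the most abundant, so BWM 2 and BWM 3 were high, Sham 2 came next and the groups overlapped. Without Ttr, a step chosen after seeing the data, the sums were 148, 567, 366, 309, 188, 325 and 512 CPM in BWM and 275, 204, 328, 210 and 249 CPM in Sham. BWM 2 and BWM 7 were then highest, and Sham 2 was the lowest Sham animal. All 13 were higher and 6 at an unadjusted p under 0.05 (median 1.48). Aqp1, a water channel of the plexus, was at 2.05, 24.0, 19.6, 3.10, 3.82, 26.2 and 214 CPM in BWM and from 0.250 to 1.64 CPM in Sham; every BWM animal was above every Sham animal, and BWM 7 stood far above. Its log2 fold change was 5.37 ± 1.29, with an adjusted p of 0.174, 0.131 without BWM 5, 0.0299 without BWM 1 and 0.0325 in the 37-library fit, and without BWM 7 it was 3.72 (0.219). Kl, klotho, spanned 1.47 to 8.40 CPM (median 2.53) and 0.0741 to 1.15 CPM (median 0.837) without overlap (2.34 ± 0.64), and Kcnj13, a potassium channel, 0.130 to 28.8 CPM (median 7.11) and 0.0715 to 3.31 CPM (median 0.449) (3.42 ± 1.15; 4.48 without Sham 2). Red cell genes, 6 of 7 listed, summed to 6.75, 10.2, 90.6, 11.3, 35.4, 19.8 and 26.9 CPM in BWM and 2.98, 4.65, 10.9, 3.77 and 1.19 CPM in Sham, Hbb being the most abundant, and 3 of 4 were higher at an unadjusted p under 0.05 (median 2.61, and 1.83 without BWM 3). Hbb and Hbb-b1, globin chains, had log2 fold changes of 2.66 ± 0.73 and 2.56 ± 0.75, and Alas2, a heme enzyme of red cells, of 3.19. BWM 3 was the highest animal for each, and without it the log2 fold changes of Hbb and Hbb-b1 were 1.99 and 1.83. That of Hbb was 3.27 without Sham 3, and that of Alas2 was 3.89 without Sham 1. The part that the meningeal, vascular, choroid plexus and blood transcripts play in the other results was not tested.

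The levels in Bypass, Lean and Saline put the Sham values in context. Meningeal markers summed to 138 to 3913 CPM (median 613) in Bypass, 126 to 1317 CPM (median 817) in Lean and 115 to 837 CPM (median 120) in Saline. Low sums like those of Sham thus occurred in each group named here, BWM included. High sums occurred in all of them but the 5 Sham animals of batch A. Col1a1 spanned 5.72 to 360 CPM (median 53.7) in Bypass, 8.87 to 161 CPM (median 82.3) in Lean and 7.02 to 92.9 CPM (median 8.96) in Saline. Against the same 5 Sham animals, the log2 fold change of Col1a1 was 3.65 for Bypass and 3.47 for Lean in the 37-library fit, beside 4.23 for BWM, and these share the Sham animals. Set directly against Bypass and Lean, BWM differed in Col1a1 by 0.59 (adjusted p = 0.851) and 0.77 (adjusted p = 0.859).

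**Figure D3:**
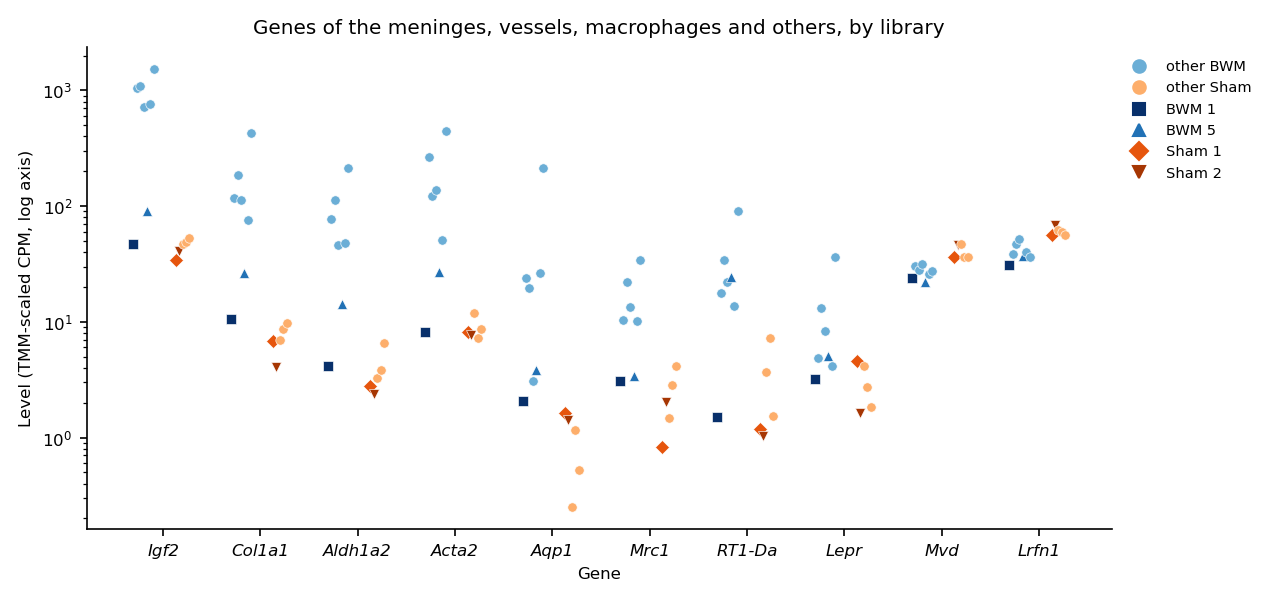
Levels of 10 genes (TMM-scaled CPM, log axis) in the 12 libraries, with BWM on the left and Sham on the right of each gene. Col1a1 and Aqp1 do not overlap between the groups, BWM 1 lies lowest or next to lowest of BWM for the meningeal genes, and Mvd and Lrfn1 are lower in all 7 BWM animals.

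Promoters are shown for a collagen gene and a pair of class II antigen-presenting genes, because each set was high in nearly the same animals. Of 6 genes looked up (Col1a1, Col1a2, Col3a1, Bgn, RT1-Da and RT1-Ba), 3 matched an entry of the RefSeq promoter table, which is on build GRCr8. Each sequence is the 250 bases before the gene's start as that table places it, 5′ to 3′ in the gene's direction. Where transcription begins was not examined. All 3 sequences lie on the plus strand of that build: Col1a2 at chr4:33518307-33518556, RT1-Da at chr20:4515165-4515414 and RT1-Ba at chr20:4576807-4577056. Capitals mark the motif CCAAT, searched on both strands, where ATTGG is its reverse complement; the motif was chosen after the sequences were seen. Each of the 3 holds it 1 time, and 34.0% of the 33469 promoters of the same length in the table hold it at least once. The match is a description of these letters.
Col1a2: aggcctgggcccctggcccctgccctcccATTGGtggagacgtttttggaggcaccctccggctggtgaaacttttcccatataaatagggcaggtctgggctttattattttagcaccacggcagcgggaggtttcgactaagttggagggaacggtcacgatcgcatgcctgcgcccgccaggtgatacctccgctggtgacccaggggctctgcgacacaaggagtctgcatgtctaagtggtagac
RT1-Da: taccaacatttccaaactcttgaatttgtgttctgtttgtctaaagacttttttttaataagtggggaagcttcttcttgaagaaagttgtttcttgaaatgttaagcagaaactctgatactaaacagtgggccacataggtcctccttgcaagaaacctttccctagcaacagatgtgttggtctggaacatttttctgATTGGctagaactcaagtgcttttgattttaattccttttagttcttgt
RT1-Ba: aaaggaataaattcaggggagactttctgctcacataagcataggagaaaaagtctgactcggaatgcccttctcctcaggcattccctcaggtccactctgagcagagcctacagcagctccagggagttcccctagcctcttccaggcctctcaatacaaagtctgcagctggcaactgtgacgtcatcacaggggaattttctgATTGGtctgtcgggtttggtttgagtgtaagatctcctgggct

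From genes known in the macrophages that line vessels and meninges, 9 were chosen after their values were seen; they were not a list, and none passed with all 12 animals. Mrc1, the mannose receptor, was at 3.05, 10.3, 22.1, 13.3, 3.42, 10.1 and 34.1 CPM in BWM and 0.834, 2.01, 1.47, 2.84 and 4.11 CPM in Sham. BWM 7 and BWM 3 were highest, and BWM 1 and BWM 5 overlapped with the upper Sham animals. Its log2 fold change was 2.61 ± 0.63, with an adjusted p of 0.174, 0.129 without BWM 5, 0.0270 without BWM 1 and 0.0325 in the 37-library fit. Cd163, which takes up hemoglobin, had a log2 fold change of 2.78 ± 0.81, Lyve1, which binds hyaluronan, of 2.12 ± 0.41, Folr2, a folate receptor, of 2.86 ± 0.56, and Stab1, a scavenger receptor, of 2.20 ± 0.47. Msr1, another scavenger receptor, spanned 0.325 to 4.41 CPM (median 1.03) in BWM and was at 0.160, 0, 0, 0.0746 and 0.111 CPM in Sham. Cybb, a subunit of the phagocyte oxidase, spanned 0.444 to 7.10 CPM (median 1.10) and was at 0.225, 0.201, 0.0715, 0.0373 and 0.222 CPM (3.71 ± 0.77; 2.97 without BWM 7). For Msr1, Cybb, Folr2, Ms4a4a and Cd4, every BWM animal, BWM 1 included, was above every Sham animal. Over all genes tested this held for 80 (0.406%), and the genes named were picked with their values known. Ms4a4a, a membrane protein of macrophages, had a log2 fold change of 4.21 ± 0.88, and Cd4, a coreceptor that rat macrophages carry, of 1.44 ± 0.29. Each of these 9 genes passed an adjusted p under 0.05 in the 37-library fit, and all but Cd163 (0.0519) did so without BWM 1. None did without BWM 5 or without BWM 1, Sham 1 and Sham 2. Over all genes, 1.30% were higher at that threshold in the 37-library fit and 2.38% without BWM 1. Because the 9 were chosen after their values were seen, their count is not a test of macrophage genes.

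Markers of microglia, the macrophages of brain tissue itself, differed little. They summed to 437, 441, 524, 515, 383, 454 and 667 CPM in BWM and 317, 416, 419, 496 and 558 CPM in Sham, and the groups overlapped. Among 12 markers, 2 were higher at an unadjusted p under 0.05 (median 0.13, and -0.05 without BWM 1, Sham 1 and Sham 2), or 0 (without BWM 3, BWM 7, Sham 1 or Sham 2) to 3 (without BWM 5 or Sham 5) with 1 library left out. They were Cd68, a lysosomal protein, at 1.72 to 7.83 CPM (median 4.96) in BWM and 0.962 to 3.11 CPM (median 2.46) in Sham (adjusted p = 0.358), and C1qc, a complement subunit, at 32.3 to 64.5 CPM (median 41.1) and 19.7 to 44.8 CPM (median 29.8) (0.46 ± 0.21). None passed the adjusted threshold with all 12 animals, without BWM 5, without BWM 1 or in the 37-library fit.

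Genes of inflammation and of antigen presentation were higher in part. Of 20 cytokine and NF-kB genes tested, 18 were higher and 10 at an unadjusted p under 0.05 (median 0.53), beside 7.72% of all genes. At an adjusted p under 0.05, 6 passed without BWM 1, 0 without BWM 5, 0 without BWM 1, Sham 1 and Sham 2, 4 without BWM 1 and BWM 5, and 3 in the 37-library fit. Tnfrsf1b, a receptor for tumor necrosis factor, spanned 1.63 to 6.75 CPM (median 2.22) in BWM and was at 1.09, 0.971, 0.679, 0.746 and 1.70 CPM in Sham (1.64 ± 0.41). Il1r1, the receptor for interleukin 1, spanned 4.55 to 69.7 CPM (median 22.0) and was at 11.1, 6.23, 6.08, 7.09 and 6.67 CPM (1.88 ± 0.50), with BWM 1 lowest of all 12 animals. Il1b, interleukin 1 beta, was low throughout, at 0.0325 to 1.65 CPM (median 0.778) in BWM and 0.0962 to 0.224 CPM (median 0.107) in Sham (2.47 ± 0.70), and Tlr4, a sensor of bacterial lipid, had a log2 fold change of 1.56 ± 0.45. Of 23 interferon and histocompatibility genes, 20 were higher and 7 at an unadjusted p under 0.05 (median 0.63), or 5 (without BWM 7, Sham 1, Sham 2 or Sham 5) to 13 (without BWM 1) with 1 library left out; 3 passed without BWM 1, 0 without BWM 5, 0 without BWM 1, Sham 1 and Sham 2, 3 without BWM 1 and BWM 5, and 1 in the 37-library fit. RT1-Da and RT1-Ba, the class II genes whose promoters are printed above, present peptides to T cells. RT1-Da (gene36406, chr20:4127644-4132616 on Rnor_6.0) was at 1.49, 17.9, 34.5, 22.1, 24.2, 13.8 and 91.2 CPM in BWM and 1.19, 1.04, 3.65, 7.20 and 1.52 CPM in Sham. All BWM animals other than BWM 1 exceeded the highest Sham animal, Sham 4. Its log2 fold change was 3.33 ± 0.84 with an adjusted p of 0.175, 0.171 without BWM 5, 0.0207 without BWM 1 and 0.0487 in the 37-library fit. It was 2.71 without BWM 7 and 3.97 without Sham 4. Cd74, the invariant chain that escorts class II molecules, and RT1-Ba had log2 fold changes of 3.08 ± 0.79 and 3.05 ± 0.83, and Psmb8, a subunit of the immune proteasome, of 0.80 ± 0.28.

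Feeding peptides of the arcuate nucleus showed no shared shift. All 12 genes tested, of 13 listed, overlapped between the groups, 5 were higher in BWM and 7 lower, 0 passed an unadjusted p under 0.05, and the median log2 fold change was -0.10 beside 0.01 over all genes, and -0.34 (without Sham 1) to 0.33 (without Sham 4) with 1 library left out. Agrp, agouti-related peptide (gene35675, chr19:37525941-37584875 on Rnor_6.0), was at 0.584, 1.33, 0.754, 0.613, 0.772, 16.5 and 6.97 CPM in BWM 1 to 7 and 1.22, 0.837, 1.79, 9.52 and 0.519 CPM in Sham 1 to 5. BWM 6, BWM 7 and Sham 4 were high and the rest lay together near the bottom of the range; the log2 fold change was 0.51 ± 1.02 with an adjusted p of 0.896, and was -0.60 without BWM 6 and 1.84 without Sham 4. Npy, neuropeptide Y, which the same neurons release, was at 37.6, 19.6, 5.35, 5.74, 6.25, 62.1 and 14.9 CPM in BWM and 4.23, 34.9, 9.94, 26.4 and 16.2 CPM in Sham (0.25 ± 0.68). BWM 6 was highest, followed by BWM 1 and Sham 2. Pomc, proopiomelanocortin (gene15639, chr6:28382937-28388771), was at 3.38, 56.8, 84.3, 18.7, 1212, 2162 and 2526 CPM in BWM and 3.72, 2.71, 1114, 198 and 71.2 CPM in Sham. It varied widely within each group: BWM 5, 6 and 7 and Sham 3 were high, and BWM 1, Sham 1 and Sham 2 were nearly without it. Its log2 fold change was 1.65 ± 1.62 (adjusted p = 0.752), and 3.65 without Sham 3. Pomc is also made in the pituitary, and what part of it came from there was not tested. Cartpt, the cocaine- and amphetamine-regulated transcript, spanned 90.4 to 270 CPM (median 116) in BWM and was at 13.2, 8.90, 218, 243 and 175 CPM in Sham (0.18 ± 0.69), with Sham 1 and Sham 2 far below all other animals.

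The remaining arcuate genes also overlapped. Nmu, neuromedin U, spanned 0.377 to 25.9 CPM (median 1.59) in BWM and 0.167 to 4.55 CPM (median 0.417) in Sham (2.41 ± 1.18; 1.43 without BWM 7 and 4.09 without Sham 4), and Sst, somatostatin, 69.8 to 290 CPM (median 89.0) and 130 to 313 CPM (median 195) (-0.42 ± 0.40). Ghsr, the ghrelin receptor, had a log2 fold change of -0.41 ± 0.57, Pdyn, prodynorphin, of -0.25 ± 0.47, and Ghrh, growth hormone-releasing hormone, of -0.25 ± 0.78. Gal, galanin, Kiss1, kisspeptin, and Tac3, neurokinin B, had log2 fold changes of -0.18 ± 0.96, -0.15 ± 0.88 and -0.05 ± 0.39. With BWM 1, Sham 1 and Sham 2 left out, the median of the list was -0.41, 2 of its genes were lower at an unadjusted p under 0.05 and 0 at an adjusted p under 0.05. Of 22 other hypothalamic peptide genes tested, 9 were higher and 0 passed an unadjusted p under 0.05 (median -0.27, and -0.44 (without BWM 2 or BWM 6) to 0.14 (without Sham 4) with 1 library left out); Qrfp counts under 2 gene IDs there. Nucb2, the precursor of nesfatin, and Bdnf, brain-derived neurotrophic factor, had the smallest p, with log2 fold changes of 0.50 ± 0.31 and -0.99 ± 0.71, the latter -0.24 without Sham 2. Hcrt and Pmch, whose low levels in BWM 1, Sham 1 and Sham 2 are given above, had log2 fold changes of -0.99 ± 1.19 and -0.29 ± 1.17, and Oxt of -0.28 ± 1.24, with SEs above 1 for each; that of Hcrt was -0.35 without Sham 3.

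**Figure D4:**
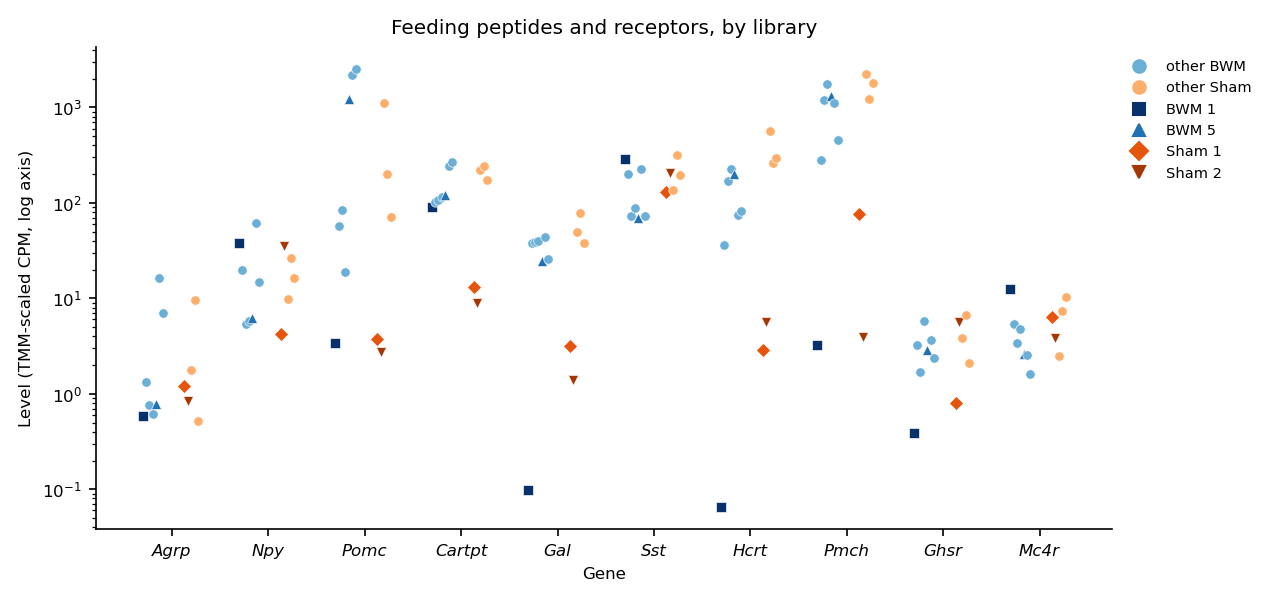
Levels of feeding peptides and receptors (TMM-scaled CPM, log axis) in the 12 libraries, with BWM on the left and Sham on the right of each gene. The groups overlap for all 10 genes, and BWM 1, Sham 1 and Sham 2 lie far below the rest for Hcrt and Gal.

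The leptin receptor was higher in most BWM animals without passing the test. Lepr (gene14199, chr5:120503475-120682281 on Rnor_6.0) was at 3.21, 4.88, 13.1, 8.26, 5.03, 4.18 and 36.1 CPM in BWM 1 to 7 and 4.62, 1.64, 4.15, 2.72 and 1.85 CPM in Sham 1 to 5. BWM 7 was far above the rest, and leaving it out gave a log2 fold change of 1.11 (adjusted p = 0.489). BWM 3 and BWM 4 came next, and BWM 1 and BWM 6 lay among the Sham animals. With all 12 animals the log2 fold change was 1.83 ± 0.62 with an adjusted p of 0.267; it was 1.94 (0.294) without BWM 5, 1.97 (0.0972) without BWM 1 and 1.83 (0.0721) in the 37-library fit. By DESeq2 with the prior the adjusted p was 0.0546. Lepr spanned 3.57 to 29.4 CPM (median 7.02) in Bypass and 3.66 to 9.17 CPM (median 8.17) in Lean, and BWM differed from them by 0.14 (adjusted p = 0.956) and 0.61 (0.847). The animals high in Lepr, BWM 7 and BWM 3, were also those with the highest meningeal sums, 3611 and 2021 CPM, and the part of those transcripts in the Lepr level was not tested.

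Of the 20 genes of leptin receptor signaling, 16 were higher, 4 at an unadjusted p under 0.05, where 7.72% of all genes were higher. The median log2 fold change was 0.33, and 0.21 (without BWM 7) to 0.38 (without Sham 3) with 1 library left out. The count at an unadjusted p under 0.05 was 2 without BWM 1, Sham 1 and Sham 2 and 8 in the 37-library fit. The count was 2 (without Sham 2) to 7 (without BWM 2) with 1 of the 12 libraries left out. The 4 with all 12 animals were Lepr, Ptpn11, Stat3 and Il6st. Ptpn11, the phosphatase SHP2 that relays the signal, was at 369, 571, 440, 442, 338, 450 and 391 CPM in BWM and 387, 276, 350, 300 and 334 CPM in Sham (0.38 ± 0.14), with BWM 1 and BWM 5 within the Sham range. Stat3, the transcription factor that leptin activates, was at 48.6, 46.5, 60.7, 69.2, 99.7, 60.9 and 110 CPM in BWM and 46.5, 41.6, 56.8, 50.3 and 45.2 CPM in Sham (0.56 ± 0.21). BWM 5 and BWM 7 were highest, and BWM 1 and BWM 2 overlapped with Sham. Il6st, the signaling chain shared by interleukin 6 receptors, spanned 118 to 280 CPM (median 158) in BWM and 110 to 132 CPM (median 115) in Sham (0.50 ± 0.20). Their adjusted p were 0.305, 0.331 and 0.356, and none passed without BWM 1 or in the 37-library fit. Among other transcription factors of the pathway, Stat5a had a log2 fold change of 0.53 ± 0.27 and Stat5b of 0.67 ± 0.33. The kinases Jak1, Jak2 and Tyk2 had -0.10, 0.18 and 0.20. The inhibitors Socs1, Socs3 and Cish had 0.51, 0.65 and 0.08, with 1.21 for Cish without Sham 3, and the phosphatases Ptpn1 and Ptpn2 -0.15 and 0.12. Socs3, which leptin induces, spanned 0.909 to 12.6 CPM (median 3.70) in BWM and 1.87 to 3.79 CPM (median 3.59) in Sham. The adaptors Irs1, Irs2, Grb2 and Sh2b1 had log2 fold changes of 0.42, -0.14, -0.11 and 0.01, and Leprot, which shares its locus with Lepr, of 0.30.

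Insulin and growth factor signaling through PI3K and Akt showed no shared shift. Of 25 genes, 15 had log2 fold changes above 0 and the median was 0.07; 4 were higher and 1 lower at an unadjusted p under 0.05. Without BWM 1, Sham 1 and Sham 2 the median was 0.24, with 7 higher and 2 lower, and over single leave-outs it was 0.01 (without BWM 1) to 0.22 (without Sham 1). The members with the smallest p were Igf2, described above, Igfbp2, Igf1 and Foxo1. Igfbp2, which binds insulin-like growth factors, was at 47.7, 276, 419, 174, 29.1, 195 and 798 CPM in BWM and 21.7, 30.8, 12.7, 38.0 and 34.3 CPM in Sham (3.33 ± 0.74), with BWM 5 the only BWM animal inside the Sham range. Igf2 and Igfbp2 were the members that passed without BWM 1 (adjusted p = 0.0114 and 0.0223) and in the 37-library fit (0.0325 and 0.0381). Igf1 spanned 6.29 to 30.1 CPM (median 13.4) and 3.08 to 9.08 CPM (median 7.05) (1.20 ± 0.39), and Foxo1, a transcription factor that Akt holds in the cytoplasm, 4.96 to 16.9 CPM (median 10.1) and 2.72 to 9.84 CPM (median 4.15) (0.92 ± 0.41). Insr, the insulin receptor, was at 22.8, 5.95, 19.7, 20.7, 16.2, 7.37 and 22.1 CPM in BWM and 26.6, 8.97, 12.2, 7.24 and 9.45 CPM in Sham, with Sham 1 highest of all and wide overlap (0.35 ± 0.40, adjusted p = 0.795). Of 17 genes of AMPK and energy sensing, 6 had log2 fold changes above 0 and the median was -0.07 (0.06 without Sham 2); 2 were higher and 1 lower at an unadjusted p under 0.05, the latter 0 (without BWM 5, BWM 7 or Sham 2) to 4 (without BWM 1) with 1 library left out. Prkab1, a regulatory subunit of AMPK, was at 21.7, 31.7, 31.2, 21.3, 34.2, 31.4 and 32.9 CPM in BWM and 20.4, 17.5, 21.8, 19.4 and 23.2 CPM in Sham. BWM 1 and BWM 4 lay within the Sham range and the other 5 above it. It differed by 0.52 ± 0.15, with an adjusted p of 0.213, 0.0493 without BWM 1 and 0.0384 in the 37-library fit. Cpt1a, which carries fatty acids into mitochondria, spanned 32.9 to 95.7 CPM (median 49.2) and 29.9 to 35.2 CPM (median 34.3) (0.73 ± 0.25). Camkk1, a calcium-dependent kinase that can activate AMPK, was at 565 CPM in Sham 2 and no more than 176 CPM in the rest (-0.91 ± 0.37, -0.21 without Sham 2, and -0.38 without BWM 1, Sham 1 and Sham 2).

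Receptors for melanocortins and neuropeptide Y overlapped between the groups. Of 9 listed, 6 were high enough to test, 2 were higher, 0 passed an unadjusted p under 0.05, and the median was -0.35. Without BWM 1, 2 were lower at an unadjusted p under 0.05 with a median of -0.56, and without Sham 5, 1 was higher and 1 lower with a median of -0.10. The 37-library fit had a median of 0.06, with 5 of 9 higher. Mc4r, the receptor through which melanocortins restrain feeding, was at 12.6, 5.33, 3.43, 4.81, 2.61, 2.55 and 1.62 CPM in BWM and 6.38, 3.88, 2.47, 7.39 and 10.4 CPM in Sham (-0.38 ± 0.49). BWM 1 was highest, and leaving it out gave -0.85 with an adjusted p of 0.266. Mc3r, a related receptor, was at 0, 2.81, 2.43, 3.61, 1.32, 3.30 and 3.39 CPM in BWM and 0.674, 0, 2.89, 3.84 and 1.96 CPM in Sham (0.36 ± 0.94), and was at 0 in BWM 1 and Sham 2. Mrap2, which aids melanocortin receptors, had a log2 fold change of 0.07 ± 0.34. Npy1r, Npy2r and Npy5r, receptors for neuropeptide Y, had -0.32 ± 0.30, -0.73 ± 0.41 and -0.45 ± 0.35. Mc5r, Mrap and Npy4r were not tested for their low levels. Mc5r spanned 0.0325 to 0.444 CPM (median 0.343) in BWM and 0.0357 to 0.201 CPM (median 0.0746) in Sham, and Npy4r 0.0325 to 0.446 CPM (median 0.222) and 0 to 0.225 CPM (median 0.112). Mrap was at 6.89 CPM in BWM 6, 0.951 CPM in BWM 7 and no more than 0.353 CPM in the other animals.

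Receptors for gut hormones and related peptides were level as a group, with a few lower. Of 22 tested, 13 had log2 fold changes above 0 (median 0.10, 0.01 (without BWM 4) to 0.16 (without Sham 4) with 1 library left out, and -0.01 without BWM 1, Sham 1 and Sham 2); 0 were higher and 3 lower at an unadjusted p under 0.05. Nmbr, a receptor for neuromedin B, was at 2.01, 2.26, 0.823, 1.23, 1.18, 2.67 and 2.22 CPM in BWM and 4.75, 2.78, 8.33, 3.51 and 2.22 CPM in Sham. BWM 2 and BWM 6 lay above the lowest Sham animal, Sham 5, and BWM 7 equalled it to the digits given. The log2 fold change was -1.28 ± 0.37, with an adjusted p of 0.215, 0.106 without BWM 1 and 0.0384 in the 37-library fit. Sstr3, a somatostatin receptor, spanned 4.81 to 16.3 CPM (median 9.91) in BWM and was at 20.4, 42.8, 16.8, 9.78 and 11.9 CPM in Sham (-1.07 ± 0.36; 0.0378 in the 37-library fit). Without BWM 1, Sham 1 and Sham 2 it was -0.31. Ramp3, a partner of calcitonin receptors, was at 118 CPM in Sham 1 and no more than 19.7 CPM elsewhere (-1.77 ± 0.71, -0.01 without Sham 1, and 0.27 without BWM 1, Sham 1 and Sham 2). Gcgr, the glucagon receptor, spanned 0 to 2.63 CPM (median 0.871) and 0 to 0.751 CPM (median 0.112) (1.88 ± 1.02; 2.59 without Sham 3). Ffar4, a receptor for fatty acids, and Ucn, urocortin, were too low to test. Each was high in a single BWM animal, Ffar4 at 8.27 CPM in BWM 5 and Ucn at 11.6 CPM in BWM 7, against no more than 0.539 and 0.482 CPM in the other animals.

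Serotonin and glycine receptors depended on single libraries. Of 19 genes tested, 2 were higher and 1 lower at an unadjusted p under 0.05. With 1 library left out the former stayed at 2 and the latter was 0 (without Sham 2) to 3 (without Sham 5). With all 12 animals 13 had log2 fold changes above 0 and the median was 0.46, and without BWM 1 7 had and it was -0.16. Htr2a was at 10.7, 0.518, 1.13, 3.42, 3.16, 0.778 and 1.81 CPM in BWM and 0.674, 0.971, 0.822, 0.597 and 0.926 CPM in Sham. BWM 1 was highest, and BWM 2 and BWM 6 lay below or among the Sham animals. It differed by 1.95 ± 0.68 at an adjusted p of 0.288, and by 1.2 (0.214) with BWM 1 left out. Htr1b was at 14.2, 1.15, 4.52, 6.22, 2.57, 0.741 and 4.91 CPM in BWM and 7.18, 2.31, 2.39, 2.39 and 1.45 CPM in Sham (0.64 ± 0.65; 0.08 without BWM 1). Htr5a had a log2 fold change of 0.23 ± 0.41 (-0.13 without BWM 1), and Htr5b of -2.38 ± 0.94 (0.07 without Sham 2), with Sham 2 at 12.1 CPM and the others at 1.53 CPM or less. Tph2, which makes serotonin in neurons, spanned 0.377 to 8.82 CPM (median 1.44) in BWM and 0.709 to 2.34 CPM (median 0.930) in Sham (1.32 ± 0.76), with BWM 5 and BWM 7 high. Among glycine receptor subunits, Glra3 was at 0.584, 0.259, 1.23, 2.32, 1.18, 0.555 and 0.888 CPM in BWM and 0.770, 0.0669, 0.214, 0.299 and 0.148 CPM in Sham (1.72 ± 0.62, adjusted p = 0.299; 2.44 without Sham 1). Glra1 and Glra4 had log2 fold changes of -0.04 ± 0.66 and 0.49 ± 0.66, the latter -0.16 without BWM 1, which held 10.1 CPM.

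Among receptors for pituitary and related hormones, 1 of 15 was higher at an unadjusted p under 0.05 (median 0.15, and -0.07 without BWM 1, Sham 1 and Sham 2), and 3 were when BWM 1, Sham 1 or Sham 4 alone was left out. The gene higher with all 12 animals was Prlr, the prolactin receptor, which the choroid plexus list also holds. It was at 0.227, 0.777, 2.06, 1.84, 2.72, 0.926 and 1.52 CPM in BWM and 0.834, 0.469, 0.393, 0.448 and 0.482 CPM in Sham, with BWM 1 lowest of all and BWM 2 under the highest Sham animal. With all 12 animals the difference was 1.45 ± 0.50 at an adjusted p of 0.284, which was 0.0421 without BWM 1 and 0.429 without BWM 5. Ghr, the growth hormone receptor, had a log2 fold change of 0.46 ± 0.23. Esr1, an estrogen receptor, was at 52.1 CPM in BWM 5 and no more than 13.7 CPM elsewhere, with a log2 fold change of 1.35 ± 0.68 and 0.49 without BWM 5.

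Neuronal genes leaned low in BWM. The 14 neuron markers summed to 8034, 6721, 5405, 6696, 4871, 5788 and 6075 CPM in BWM and 7772, 10986, 9119, 8007 and 6382 CPM in Sham, with Syp the most abundant, so Sham 2 and Sham 3 lay above every BWM animal and the other 3 Sham animals did not. Of 14 tested, 5 were lower and 0 higher at an unadjusted p under 0.05, where 3.88% of all genes were lower. The median of the list was -0.36. With Sham 2 left out, 3 were lower with a median of -0.26, and over single leave-outs the count ran from 3 (without Sham 1, Sham 2 or Sham 3) to 6 (without BWM 1). Stmn2, which regulates microtubules in growing neurites, was at 295, 510, 387, 506, 332, 409 and 365 CPM in BWM and 569, 747, 549, 578 and 468 CPM in Sham. BWM 2 and BWM 4 exceeded the lowest Sham animal, Sham 5, and the other 5 BWM animals were below it (-0.54 ± 0.16; adjusted p = 0.217, and 0.0596 in the 37-library fit). Syp, a protein of synaptic vesicles, had a log2 fold change of -0.51 ± 0.16, Tubb3, a neuronal tubulin, of -0.43 ± 0.16, and Snap25, which fuses vesicles with the membrane, of -0.65 ± 0.25. None of the 14 passed an adjusted p under 0.05 with all 12 animals, without BWM 5, without BWM 1 or in the 37-library fit, and DESeq2 calls were not counted by list.

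Genes that were lower in all 7 BWM animals than in all 5 Sham animals made up 0.198% of those tested. Mvd and Lrfn1, the leading pair by p, and Reep2 are described and were chosen after their values were seen. Mvd, an enzyme of the mevalonate pathway to cholesterol (gene35943, chr19:55258910-55268933 on Rnor_6.0), was at 23.8, 30.6, 27.9, 31.5, 21.9, 26.1 and 27.4 CPM in BWM and 36.4, 45.7, 46.7, 36.1 and 36.3 CPM in Sham. The ranges were narrow and apart, and the log2 fold change was -0.57 ± 0.12 with an adjusted p of 0.169, 0.0386 without BWM 1 and 0.0325 in the 37-library fit. Lrfn1, a protein of synaptic adhesion (gene1527, chr1:85290887-85308498), was at 31.1, 38.6, 46.6, 51.5, 36.9, 40.2 and 36.4 CPM in BWM and 55.9, 68.0, 62.4, 59.5 and 56.3 CPM in Sham (-0.58 ± 0.12; 0.0299 without BWM 1 and 0.0325 in the 37-library fit). Reep2, which shapes the endoplasmic reticulum, spanned 147 to 198 CPM (median 182) in BWM and 215 to 250 CPM (median 238) in Sham (-0.38 ± 0.10; 0.0378 in the 37-library fit). These differences fall short of the fold threshold of 1, so none of the 3 counts as regulated in these settings. Fblim1, an adaptor of actin fibres, had the smallest p of all genes tested and was also chosen after its values were seen. It was at 6.85, 11.4, 5.69, 5.71, 5.51, 4.11 and 16.5 CPM in BWM and 1.12, 0.803, 0.929, 1.42 and 1.89 CPM in Sham, with no overlap and BWM 1 well above Sham (2.69 ± 0.40, adjusted p = 0.169, 0.0126 without BWM 1).

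Subunits of oxidative phosphorylation leaned low in BWM, with few past an unadjusted p under 0.05. Of 74 subunits of complexes I to V tested, 4 had log2 fold changes above 0, and the median was -0.22 beside 0.01 over all genes; 4 were lower and 0 higher at an unadjusted p under 0.05, where 3.88% of all genes were lower. Without BWM 5 the median was -0.17 and 0 were lower at an unadjusted p under 0.05, and without Sham 2 it was -0.21 and 0 were. With BWM 1, Sham 1 and Sham 2 left out, 17 were and the median was -0.33, where 6.32% of all genes were lower. The count turned on single libraries: leaving out 1 at a time gave 0 (without BWM 3, BWM 5, BWM 7, Sham 2 or Sham 3) to 37 (without BWM 2). Over all genes tested without BWM 2, 1089 of 19590 were lower at an unadjusted p under 0.05. The summed level overlapped, and BWM 2 was highest of all 12 animals at 18374 CPM. Atp5c1, a subunit of ATP synthase, was at 305, 339, 220, 250, 207, 234 and 213 CPM in BWM and 255, 353, 348, 343 and 304 CPM in Sham (-0.34 ± 0.15), with BWM 1 and BWM 2 inside the Sham range and the other 5 below it. Ndufa9, of complex I, had a log2 fold change of -0.28 ± 0.13. Sdhb, Sdhc and Sdhd, of complex II, were level: Sdhb spanned 119 to 180 CPM (median 137) in BWM and 125 to 176 CPM (median 163) in Sham, and the log2 fold changes were -0.13 ± 0.12, -0.03 ± 0.12 and -0.03 ± 0.13, with adjusted p of 0.731, 0.959 and 0.953. All 31 proteasome subunits had log2 fold changes below 0, with a median of -0.21, and 5 were lower at an unadjusted p under 0.05, 11 without BWM 1, Sham 1 and Sham 2, and 1 (without BWM 3, BWM 5, BWM 7, Sham 3 or Sham 4) to 22 (without BWM 2) with 1 library left out. Without Sham 2, 2 were, beside 2.54% of all genes. Psmd6 was at 140, 160, 129, 149, 125, 138 and 117 CPM in BWM and 138, 191, 182, 200 and 159 CPM in Sham (-0.34 ± 0.12), and Psmc6 had a log2 fold change of -0.26 ± 0.11; the groups overlapped for both. Of 76 gene IDs tested for 75 listed ribosomal proteins, 49 were higher and the median was 0.04. The direction turned with the libraries used: 34 were higher with a median of -0.01 without Sham 2, 15 with -0.07 without BWM 2, and 15 with a median of -0.08 without BWM 1, Sham 1 and Sham 2. Rpl29 and Rpl10a had the smallest p there (0.39 ± 0.14 and 0.34 ± 0.13). No gene of these 3 lists passed an adjusted p under 0.05 with all 12 animals, without BWM 5, without BWM 1 or in the 37-library fit.

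Markers of tanycytes, glia that line the floor of the third ventricle, summed to 441, 503, 480, 438, 310, 646 and 1428 CPM in BWM and 206, 604, 140, 402 and 235 CPM in Sham, with Vim the most abundant, and 4 of 11 were higher at an unadjusted p under 0.05 (median 0.96), or 2 (without BWM 7, Sham 1, Sham 3 or Sham 5) to 4 (without BWM 1, BWM 2, BWM 4, BWM 5 or BWM 6) with 1 library left out; 2 passed an adjusted p under 0.05 without BWM 1, 3 without BWM 1 and BWM 5, and 0 without BWM 1, Sham 1 and Sham 2. The median of the list was 0.46 (without BWM 7) to 1.04 (without Sham 4) with 1 library left out. Of all genes, 7.72% were higher at an unadjusted p under 0.05 with all 12 animals. Without Vim, a step chosen after seeing the data, the sums were 413, 138, 88.5, 84.1, 160, 244 and 281 CPM in BWM and 90.2, 538, 60.6, 243 and 160 CPM in Sham, with medians of 160 and 160 CPM. Vim, vimentin, which fibroblasts and vessel cells also make, was at 27.9, 365, 392, 354, 150, 402 and 1147 CPM in BWM and 116, 66.3, 79.6, 159 and 74.6 CPM in Sham (2.03 ± 0.64; adjusted p = 0.0256 without BWM 1), with BWM 7 highest and BWM 1 lowest of all. Adm, adrenomedullin, which widens vessels, ranged from 1.14 to 9.76 CPM in BWM and from 0.893 to 2.24 CPM in Sham (1.59 ± 0.43; 0.0223 without BWM 1), and Nes, nestin, had a log2 fold change of 0.96 ± 0.41. Ependymal markers summed to 48.3, 88.6, 92.4, 66.7, 118, 163 and 257 CPM in BWM and 197, 78.1, 69.6, 109 and 44.3 CPM in Sham, with a median of -0.20 and Rarres2, a chemoattractant, the single member at an unadjusted p under 0.05 (1.48 ± 0.43). The median was 0.66, with 7 of 8 higher, without BWM 1, Sham 1 and Sham 2, and 0.34 without Sham 1. Astrocyte markers summed to 4849 to 7915 CPM in BWM and 4862 to 7758 CPM in Sham, with a median of -0.02; Aldh1l1 and Gfap had log2 fold changes of 0.26 ± 0.20 and 0.29 ± 0.32. Oligodendrocyte markers summed to 9148 to 26305 CPM and 15170 to 25115 CPM, led by Mbp, with a median of -0.09 and Cnp at -0.26 ± 0.21. Their precursors summed to 411 to 886 CPM and 513 to 869 CPM, with a median of 0.02 and Pdgfra, which fibroblasts share, at 0.64 ± 0.32. With 1 library left out, the medians were -0.11 (without Sham 1) to 0.07 (without Sham 4) for astrocytes, -0.19 (without BWM 3 or Sham 4) to 0.01 (without BWM 5) for oligodendrocytes and -0.04 (without BWM 6) to 0.10 (without BWM 5) for their precursors.

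Lists of neighbouring brain regions turned with the libraries that stood apart. Striatal markers had a median of 0.72 with all 12 animals and -0.74 without BWM 1, where 4 of 12 were lower at an unadjusted p under 0.05; Pde10a, a phosphodiesterase of striatal neurons, was at 297 CPM in BWM 1 and no more than 35.7 CPM elsewhere (1.51, and -0.44 without BWM 1). Markers of cortex and hippocampus had a median of -1.25, with 5 of 12 lower at an unadjusted p under 0.05, and 0.33 without Sham 2, where 0 were. Single leave-outs gave 0 (without Sham 2) to 8 (without BWM 6). Slc17a7, a glutamate transporter of cortical neurons, was at 1504 CPM in Sham 2, 267 CPM in Sham 3 and at most 64.5 CPM in the rest (-3.59 ± 1.21, and -1.36 without Sham 2), and Neurod2 had a log2 fold change of -3.45 ± 1.22 (-1.04 without Sham 2). Thalamic markers had a median of -0.56 with all 12 animals and 0.33 without BWM 1, Sham 1 and Sham 2, and 0.33 without Sham 1; Prkcd was at 506 CPM in Sham 1 and no more than 77.0 CPM elsewhere (-1.62, and 1.33 without Sham 1). Markers of hypothalamic nuclei had a median of 0.18, of -0.26 without BWM 1, Sham 1 and Sham 2, and of -0.08 (without Sham 2) to 0.59 (without Sham 3) with 1 library left out, with 1 of 20 lower at an unadjusted p under 0.05 with all 12 animals. Without Sham 3, 3 were higher, and 0 with all 12. The lower gene was Lhx9, at 36.7 CPM in Sham 1, 16.3 CPM in Sham 2 and no more than 8.69 CPM elsewhere (-1.82 ± 0.71, -0.86 without Sham 1, and 0.37 without BWM 1, Sham 1 and Sham 2).

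Other lists chosen for what hunger and weight loss are known to engage held few members past an unadjusted p under 0.05 and none past the adjusted threshold with all 12 animals. For the glucocorticoid, immediate early, thyroid, clock and stress lists, leaving out 1 library gave from 0 to 4 members at an unadjusted p under 0.05 each way. Among glucocorticoid-responsive genes 1 of 15 was higher (median 0.10, and -0.02 (without Sham 4) to 0.20 (without Sham 1) with 1 library left out). That gene, Errfi1, an inhibitor of the epidermal growth factor receptor, was at 52.5, 59.7, 84.2, 74.2, 76.3, 46.6 and 117 CPM in BWM and 41.0, 52.3, 40.0, 33.1 and 39.2 CPM in Sham. BWM 6 alone lay below the highest Sham animal; the log2 fold change was 0.83 ± 0.21, with an adjusted p of 0.175 and 0.0404 without BWM 1. Dusp1, a phosphatase that glucocorticoids induce, had 0.53 ± 0.38. Immediate early genes had a median of 0.70, with 2 of 16 higher at an unadjusted p under 0.05, and of 0.36 with 0 without BWM 5. Nr4a1 was at 64.5, 39.1, 34.0, 26.2, 337, 88.1 and 164 CPM in BWM and 25.5, 67.7, 24.1, 21.7 and 47.2 CPM in Sham (1.54 ± 0.63; 0.90 without BWM 5), and Fos had a log2 fold change of 0.68 ± 0.31. On the thyroid axis 2 of 12 were higher (median 0.23, and 0.04 (without Sham 3) to 0.36 (without Sham 2) with 1 library left out). Among them was Slc16a10, which carries thyroid hormone and aromatic amino acids, at 1.26 to 5.73 CPM (median 2.26) in BWM and 1.03 to 1.56 CPM (median 1.49) in Sham (0.91 ± 0.38). Clock genes had a median of -0.06 (0.07 without Sham 1) and 1 of 18 higher, Per3 (0.59 ± 0.26). Genes of endoplasmic reticulum stress had a median of 0.13, and of 0.01 (without BWM 5) to 0.20 (without Sham 4) with 1 library left out. With all 12 animals 1 of 17 was lower, Atf4, the transcription factor of the integrated stress response, at 228, 320, 212, 235, 259, 242 and 202 CPM in BWM and 287, 304, 292, 289 and 305 CPM in Sham (-0.28 ± 0.12). BWM 2 was above all Sham animals for Atf4 and the other 6 below them.

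Genes of cholesterol and fatty acid synthesis had a median of -0.07 (0.02 without BWM 1, Sham 1 and Sham 2; 3 lower without BWM 4), and 1 of 22 was higher at an unadjusted p under 0.05. That was Scd4, a fatty acid desaturase (0.78 ± 0.35), whereas Hmgcs1, an early enzyme of the mevalonate pathway, spanned 144 to 308 CPM (median 231) in BWM and 212 to 379 CPM (median 303) in Sham (-0.38 ± 0.20). Among opioid and cannabinoid genes 4 of 11 were lower at an unadjusted p under 0.05 (median -0.34), beside 3.88% of all genes. With 1 library left out, the count was 0 (without Sham 2) to 5 (without Sham 4). The median was then -0.18 (without Sham 2) to -0.45 (without Sham 4). Cnr1, the cannabinoid receptor of neurons, was at 239 CPM in Sham 2, with Sham 4 next, and at no more than 78.1 CPM in the other 10 animals (-0.90 ± 0.31), and Daglb, which makes an endocannabinoid, had -0.34 ± 0.13. Neurotrophin genes had a median of -0.36, with 0 of 9 higher and 0 at an unadjusted p under 0.05, and medians of -0.92 (without BWM 2) to -0.24 (without Sham 2) with 1 library left out. Ntf3, neurotrophin 3, had the smallest p (-1.68 ± 0.81, and -0.29 without Sham 2), with Sham 2 highest.

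**Figure D5:**
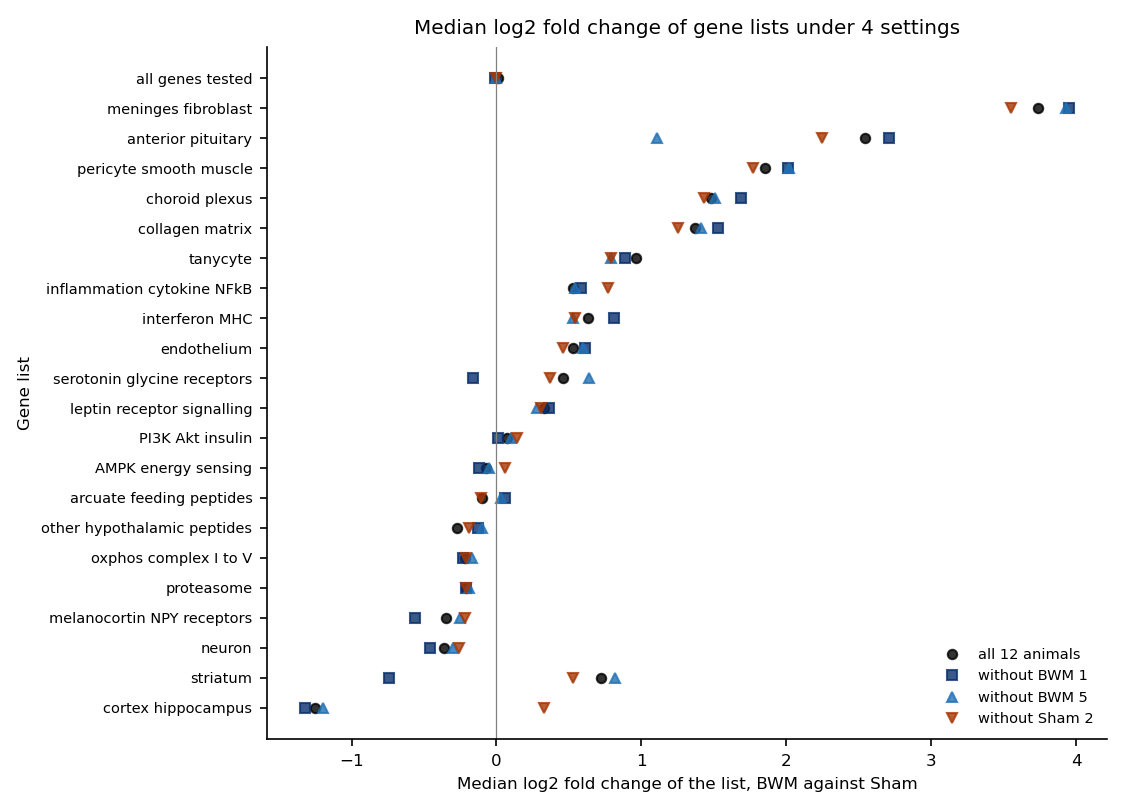
Median log2 fold change of BWM against Sham over the tested members of gene lists and over all genes tested, with all 12 animals and with BWM 1, BWM 5 or Sham 2 left out. The meningeal list stays between 3.55 and 3.95, and the striatal, cortical and pituitary lists move most.

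The anterior pituitary genes named here were highest in BWM 5, but not all of them were low in the other animals. Cga, a marker of that list, was at 0.0974, 3.51, 0.754, 2.71, 614, 304 and 403 CPM in BWM 1 to 7. In Sham 1 to 5 Cga was at 0, 0.201, 3.65, 298 and 3.59 CPM. Gh1 was at 0, 0.148, 6.10, 0.258, 64201, 1.33 and 530 CPM in BWM 1 to 7 and 0, 0, 48.8, 5.15 and 0.111 CPM in Sham 1 to 5, and Prl, prolactin (gene33443, chr17:39814236-39824299 on Rnor_6.0), at 0, 0, 3.08, 0, 13191, 0.370 and 112 CPM in BWM and 0, 0, 11.2, 0.485 and 0 CPM in Sham. BWM 5 was far above the next animal, BWM 7, for both, and BWM 1, Sham 1 and Sham 2 were at 0. With all 12 animals the log2 fold change of Gh1 was 9.77 ± 4.07 (adjusted p = 0.374) and, without BWM 5, 3.03 (0.760). That of Prl was 9.70 ± 3.81 (0.342) and 3.03 (0.744). Lhb, a subunit of luteinizing hormone, and Lhx3, a transcription factor of the pituitary, had log2 fold changes of 2.88 and 2.53, and 0.87 and 1.29 without BWM 5. Leaving out Sham 3 gave 12.78 for Gh1 and 13.94 for Prl, and leaving out Sham 4 gave 3.47 for Lhx3. Pou1f1, the factor that drives growth hormone and prolactin cells, was at 178 CPM in BWM 5, 1.65 CPM in BWM 7 and 0.357 CPM or less elsewhere. Of 8 pituitary markers tested, all were higher, 4 at an unadjusted p under 0.05 with a median of 2.54, and 0 with a median of 1.11 without BWM 5. With 1 library left out, the count ran from 0 (without BWM 5) to 4 (without BWM 1, BWM 2, BWM 3, BWM 4, BWM 6 or BWM 7), and the median was 4.89 without Sham 4.

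Against Bypass few genes differed, and most of them were highest in BWM 5. The fit of 37 libraries called 12 genes regulated between BWM and Bypass (0.0551%), all higher in BWM: Agtr1b, Cdhr1, Col24a1, Fshb, Gh1, Hepacam2, Myo15a, Pou1f1, Prl, S100a5 and 2 with numbers for symbols. The names outside the lists were chosen after their values were seen. BWM 5 was the highest BWM animal for all the named genes but S100a5. Fshb, a subunit of follicle-stimulating hormone, was at 121 CPM in BWM 5 and no more than 2.59 CPM in the other 11 animals of BWM and Sham, and Agtr1b, an angiotensin receptor, at 21.9 and no more than 0.888 CPM. Col24a1, a collagen, was at 372 CPM in BWM 5 against 13.7 CPM or less, Hepacam2 at 78.4 against 0.919 CPM or less, and Myo15a, a myosin, at 210 against 5.14 CPM or less. Cdhr1, a cadherin of photoreceptors, reached 64.5 CPM in BWM 5 and spanned 5.68 to 11.8 CPM (median 6.95) in Bypass, and BWM 1, 2, 5, 6 and 7 lay above every Bypass animal. S100a5, a calcium-binding protein, was at 60.0 CPM in BWM 6 and 4.25 CPM in BWM 7. Without BWM 5, 2 genes were regulated, S100a5 and a gene with a number for a symbol, and both were among the 12. The count was 19 without BWM 1, 19 without BWM 3 and 21 without BWM 4.

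Against Lean, whose animals were kept on low-fat food, edgeR called 0 genes regulated (0%), with 1132 at an unadjusted p under 0.05; DESeq2 was not run for it. Without BWM 1, 84 genes were regulated, 33 higher and 51 lower. Igf2 spanned 61.8 to 1810 CPM (median 281) in Bypass and 51.3 to 861 CPM (median 366) in Lean, and BWM did not differ from either at the threshold (adjusted p = 0.851 and 0.847). Mrc1 spanned 3.53 to 27.2 CPM (median 9.21) and 2.62 to 12.8 CPM (median 8.45), with differences of 0.22 and 0.75. Mvd spanned 21.1 to 37.7 CPM (median 26.0) and 22.8 to 35.4 CPM (median 28.4), with differences of 0.01 and -0.10. Agrp spanned 0.266 to 19.6 CPM (median 1.58) in Bypass and 0.379 to 3.58 CPM (median 0.749) in Lean, and Pomc 1.67 to 1074 CPM (median 30.4) and 2.87 to 123 CPM (median 37.7). For each of these 5 genes the BWM animals overlapped with both groups.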

How the data were processed

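RNA of the hypothalamus was sequenced by the authors in 1 library per animal, and replicates are separate animals. Per the submitters' processing notes, reads were converted with bcl2fastq 2.20.0.422, trimmed with cutadapt, mapped to Rnor_6.0 with STAR 2.7.2b and assigned to genes with featureCounts 1.6.4 of Subread. The deposited values are estimated counts, since the authors shared reads that fit several genes in fractions; genes that are near copies are therefore uncertain. The notes give more than 1 cutadapt version. Here counts were rounded and analyzed in R 4.3.3 with edgeR 4.0.16 and limma 3.58.1: filterByExpr with a minimum of 10 counts and 15 in total, TMM scaling, robust quasi-likelihood fits and Benjamini-Hochberg adjustment. DESeq2 1.42.0 served as the second tool, and its counts are over genes with a p-value. Each tested gene had its log2 fold change and SE from the fit. The edgeR steps were tested on simulated data with 200 changed genes. Plots were made in Python 3.11.15 with matplotlib 3.10.9. Named genes are all members of the arcuate, leptin signaling and melanocortin and neuropeptide Y receptor lists. They also include genes the study names and up to 4 members with the smallest p of every other list. There were 23 gene group lists and 17 marker lists in all. Genes past the regulated threshold in edgeR would have been added, and edgeR called none with all 12 animals. Genes with numbers for symbols were counted only, and some members are not reported here. Any others were chosen after their values were seen. The members and lists were chosen with earlier results of these data known. Samples of the other batch were used only in the fit of all 65 libraries.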

Additional observations from a re-analysis of the deposited data

Results flagged for a closer look

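Levels of 165 named genes and 17 marker sums were screened in BWM and Sham for an animal far from the rest of its group, by Dixon's ratio of the gap to the nearest animal over the group's range. Of 340 groups screened, 87 held such an animal. Some of the genes were chosen after their values were seen, so this count cannot be set against a chance rate. All values below are CPM.

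BWM 7 stood above the rest of its group for Lepr (36.1), Ucn (11.6), Col1a1 (427), Foxc2 (24.8), Col1a2 (365), Col3a1 (669), Bgn (412), Aqp1 (214), Cdh5 (50.2), Tek (63.6), RT1-Da (91.2), Cd74 (297), Igf1 (30.1) and Ramp3 (19.7). The same held for BWM 7 in Ghr (36.9), Dusp1 (211), Rarres2 (119), Adm (9.76), Vim (1147), Lhx9 (8.69), Msr1 (4.41), Cybb (7.10), Cd4 (44.6), Wnt6 (59.3), the endothelial sum (739) and the tanycyte sum (1428). BWM 5 stood above the rest of its group for Ptpn2 (32.3), Cish (9.30), Ffar4 (8.27), Gh1 (64201), Prl (13191), Lhb (101), Lhx3 (29.1), Nucb2 (120), Esr1 (52.1), Pou1f1 (178), Myo15a (210), Agtr1b (21.9), Col24a1 (372) and Fshb (121). The same held for BWM 5 in Hepacam2 (78.4) and the pituitary marker sum (78867). BWM 1 stood above the rest of its group for Pdyn (191), Mc4r (12.6), Htr1b (14.2), Htr2a (10.7), Htr5a (11.6), Glra4 (10.1), Htr5b (1.53), Pde10a (297) and the striatal sum (6083). BWM 6 stood above the rest of its group for Agrp (16.5), Kiss1 (3.55), Mrap (6.89) and S100a5 (60.0). BWM 3 stood above the rest of its group for Hbb (74.2), Hbb-b1 (13.3) and the red cell sum (90.6). BWM 2 stood above the rest of its group for Ndufa9 (136) and the choroid plexus sum (2652). Sham 2 stood above the rest of its group for Grb2 (169), Tph2 (2.34), Camkk1 (565), Htr5b (12.1), Slc17a7 (1504), Neurod2 (98.4), the choroid plexus sum (887) and the cortical sum (5225). Sham 2 stood below the rest for Stat5a (4.22). Sham 1 stood above the rest of its group for Irs1 (5.84), Insr (26.6), Htr1b (7.18), Il1r1 (11.1), Ramp3 (118), Prkcd (506) and the thalamic sum (1491). Sham 4 stood above the rest of its group for Nmu (4.55), Agrp (9.52), Lhx3 (3.40), Lyve1 (2.02) and the pituitary marker sum (497). Sham 3 stood above the rest of its group for Pomc (1114), Cish (13.5), Gh1 (48.8) and Prl (11.2). Sham 5 stood above the rest of its group for Cd4 (15.3) and Pcolce (4.89).

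BWM 7 led for meningeal, vascular and immune genes, BWM 5 for pituitary genes, BWM 1 for striatal genes and Sham 2 for cortical genes. The differences between these animals and the rest were not tested.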

How the results depend on the processing

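With all 12 animals edgeR called 0 genes regulated, and the count stayed at 0 with RLE size factors (2295 genes at an unadjusted p under 0.05), without a filter on low counts (3062 of 30615), with a stricter filter (1876 of 16222), without robust estimation (2290) and with no threshold on the fold change. It was 525 by DESeq2 without shrinkage, 436 by DESeq2 with a prior, 1040 and 515 by DESeq2 without BWM 1 and without BWM 5, 60 with all 65 libraries and a batch term, and 273 with the 37 libraries of batch A. Leaving out single libraries gave 0 to 446 in edgeR. Chosen after seeing the data, leaving out BWM 1 and BWM 5 together gave 524, leaving out BWM 1, Sham 1 and Sham 2 gave 0, and leaving out all 4 gave 171. The DESeq2 runs on 11 animals, the leave-outs of the 37-library fit and of the gene lists, and the 37-library RLE run were also chosen after seeing the data. The 37-library count ran from 0 to 963 over single leave-outs and was 287 with RLE; BWM against Bypass ran from 2 to 21, and BWM against Lean from 0 to 84. The cause was not tested. Of 3999 fold changes of 155 named genes under the alternatives, 3528 kept direction and side of the threshold, 347 kept direction and passed it, 124 turned direction without passing it and 0 turned direction and passed it. No list median changed sign with RLE in place of TMM. The replicate numbers that BWM and Sham share did not mark pairs: the deviations of same-numbered animals from their group means had correlations of 0.05, -0.07, 0.13, -0.1 and -0.13, no animal was closest to its own number, and a replicate block gave 0 regulated genes and 1298 at an unadjusted p under 0.05. The groups differed in weight and food together, and depth was close to even among libraries.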
